A study of Mus musculus with 12 samples.

Results

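The insulin-like growth factor axis was followed here through 10 genes: the ligands Igf1 and Igf2, the receptors Igf1r and Igf2r, and the binding proteins Igfbp2, Igfbp3, Igfbp4, Igfbp5, Igfbp6 and Igfbp7. They were taken by name from the 21899 genes of the deposited table, and all 10 were found in it, each as 1 row. The table places Igfbp2 and Igfbp5 on chromosome 1, Igfbp7 on 5, Igf2 and Igf1r on 7, Igf1 on 10, Igfbp3 and Igfbp4 on 11, Igfbp6 on 15 and Igf2r on 17. The set was chosen by pathway, with the measured levels of Igf1 and Igfbp2 already seen to shift between the groups, so the values of these 2 genes are given as a description, without a test. Of the other 8, 7 were tested like any gene of the table and Igf2 was too low to test.

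Igf1 and Igf2 are secreted peptides that bind Igf1r, a receptor tyrosine kinase, and through its adaptors switch on the PI3K-Akt and MAP kinase pathways of growth and survival. Igf2r, also known as the cation-independent mannose 6-phosphate receptor, has no kinase and takes Igf2 into lysosomes. The binding proteins hold the ligands outside the cell, and proteases such as pregnancy-associated plasma protein A (Pappa) release them by cutting the binding protein. In breast tumours the ligands are known to come largely from stromal cells such as fibroblasts and macrophages, and in the liver growth hormone drives Igf1.

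All libraries came from tumours of 4T1-LUC, a mouse mammary carcinoma line, grown under the skin of BALB/c mice that were 4 to 6 weeks old. Combination mice received curcumin, a plant polyphenol, at 100 mg/kg in corn oil by gavage each afternoon and swam for 30 min, starting 30 min after the gavage. Curcumin mice received the same curcumin gavage and did not swim, and swimming mice swam on the same schedule after a gavage without curcumin. Control mice received a gavage without curcumin and did not swim; the gavage volume was 200 µL in all groups, and the treatment label of the control and swimming libraries is corn oil. The inoculated mice are described as 5 per group and 3 libraries per group were analysed, 12 in all. The labels do not state that each library was a separate tumour, so p-values measure the spread between these libraries, which may be technical. Every group carries the same tumour line, and no tumour-free tissue was used in these comparisons.

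The libraries held 15069348 to 17278826 counts, and 3 counts, the level that a count of 0 still allows, stood at 0.174 to 0.199 CPM, the counts scaled to a common library total. The 3 combination libraries were unusually alike: the chi-square of their counts per degree of freedom was 3.611 to 7.485 between pairs, against 6.738 to 68.43 between pairs in the other groups. Their biological coefficient of variation was 6.47%, against 12.4% in curcumin, 16.4% in swimming and 26.7% in control. Control 2 stood apart from the other control libraries, with the lowest summed fibroblast marker level of all 12 libraries (1443 CPM) and the highest neutrophil marker level (619 CPM). Of 10 markers of mammary tumour epithelium, 8 stood at 1 CPM or more on average; Krt5 and Cldn7 did not. Their summed level was 2790 to 3526 CPM over the 12 libraries. In bulk tumour RNA, fewer cells of a type and less RNA per cell cannot be told apart.

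The 10 genes covered a wide range of levels. Per length, as mean FPKM (fragments per kilobase of gene, scaled to library total) over the 12 libraries, the order was Igfbp7 (213), Igfbp4 (167), Igfbp3 (100), Igf2r (41.9), Igf1r (10.4), Igfbp6 (3.82), Igfbp5 (3.39), Igfbp2 (0.812), Igf1 (0.582) and Igf2 (0.0126). Over single libraries, Igfbp7 (145 to 272 FPKM) overlapped Igfbp4 (124 to 194 FPKM), and Igfbp3 (40.5 to 140.1 FPKM) overlapped both Igfbp4 and Igf2r (32.8 to 56.5 FPKM). Igf1r, at 9.25 to 13.2 FPKM, overlapped no other member. Below it, Igfbp6, Igfbp5, Igfbp2 and Igf1 each overlapped the next of these 4 in the order. Igfbp7 lay above 99.5% of the genes of the table in mean FPKM and Igfbp4 above 99.3%, while Igf1 lay above 45.3%. Igfbp3, Igfbp4, Igfbp7 and both receptors were thus the abundant transcripts of the axis, and Igf2 was hardly found.

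**Figure D1:**
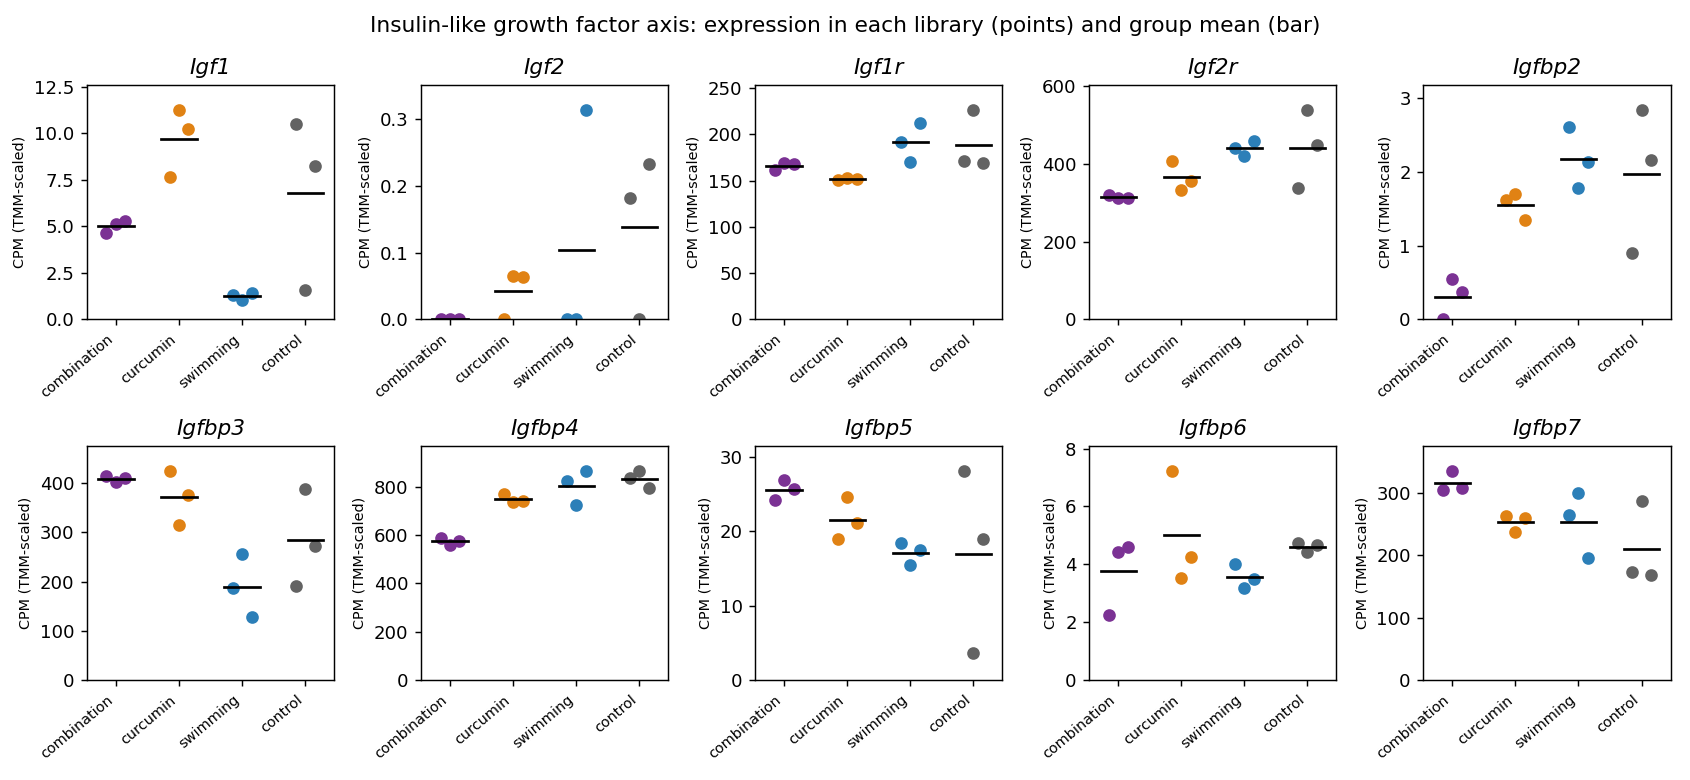
Expression of the 10 genes in each library in TMM-scaled CPM (vertical axes, linear and starting at 0), with points for libraries and bars for the mean of 3 libraries per group. Igfbp4 lies below every other library in all 3 combination libraries (561 to 586 CPM), Igfbp2 is at 0 to 0.545 CPM there, and Igf1 is at 1.06 to 1.44 CPM in swimming.

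Among the members other than Igf2, which was too low to test, Igf2r, Igfbp2 and Igfbp4 had their lowest group mean in the combination. The sequences before the starts of these genes are shown for that reason. They are the 250 bases upstream of the start in RefSeq on GRCm38.p6, written 5′ to 3′ on the gene's own strand, at chr17:12769707-12769956 (minus strand) for Igf2r, chr1:72824230-72824479 (plus strand) for the first start of Igfbp2 and chr11:99040994-99041243 (plus strand) for Igfbp4. Capitals mark matches, on either strand, to the GC box GGGCGG, the TATA box TATAAA, the E-box CACGTG or the FoxO motif GTAAACA.
Igf2r: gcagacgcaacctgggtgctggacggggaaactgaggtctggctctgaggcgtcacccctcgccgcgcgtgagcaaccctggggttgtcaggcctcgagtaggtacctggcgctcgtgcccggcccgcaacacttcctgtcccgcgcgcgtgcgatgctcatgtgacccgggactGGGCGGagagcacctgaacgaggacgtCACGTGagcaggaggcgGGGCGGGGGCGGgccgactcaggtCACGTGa
Igfbp2: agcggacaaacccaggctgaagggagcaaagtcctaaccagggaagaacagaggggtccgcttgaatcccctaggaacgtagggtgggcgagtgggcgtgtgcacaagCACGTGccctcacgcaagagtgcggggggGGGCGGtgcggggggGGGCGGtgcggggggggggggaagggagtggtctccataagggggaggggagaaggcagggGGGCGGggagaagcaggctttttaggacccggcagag
Igfbp4: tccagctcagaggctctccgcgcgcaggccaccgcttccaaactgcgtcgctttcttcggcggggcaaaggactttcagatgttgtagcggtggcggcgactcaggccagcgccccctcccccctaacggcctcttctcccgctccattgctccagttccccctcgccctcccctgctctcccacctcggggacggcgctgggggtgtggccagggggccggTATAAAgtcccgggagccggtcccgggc
Over the 300-base windows of the RefSeq table, which add 50 bases after the start, Igf2r held 3 GC boxes and 2 E-boxes. Igfbp2 held 3 GC boxes and 1 E-box at this start, and none of the motifs at its other start. Igfbp4 held 1 TATA box and no match to the other motifs. Among all 32851 promoter windows of the table, 35.66% held a GC box, 13.62% a TATA box, 7.15% an E-box and 3.65% the FoxO motif. The 10 members have 14 starts in the table, of which 6 held a GC box, 2 a TATA box, 2 an E-box and 0 the FoxO motif. GC content was 70.67% for Igf2r, 67% for this start of Igfbp2 and 71.33% for Igfbp4, against a median of 52.67% over all windows. The other start of Igfbp2 had 57.33%. High GC content was not particular to these genes. Members other than Igf2 with their lowest group mean elsewhere ran from 49.67% for Igfbp6 to 76% for Igf1r. Among them, Igfbp3 had 71.67% and Igfbp7, highest in the combination, had 73.33% and 4 GC boxes. A match describes the letters in the window and was not tested as a binding site, and no match says only that the letters are not there.

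Igf1, the ligand that carries most growth hormone action, was low in every swimming library. Its levels were 4.66, 5.15 and 5.31 CPM in combination, 7.65, 11.2 and 10.2 CPM in curcumin, 1.34, 1.06 and 1.44 CPM in swimming, and 10.5, 1.6 and 8.22 CPM in control. The swimming libraries were below all others, control 2 lay just above them, and the combination libraries lay between swimming and curcumin with no overlap on either side. Combination and control overlapped, since control 2 was below and the other control libraries above the combination. The counts behind these levels were 77, 85 and 84 in combination, 127, 172 and 159 in curcumin, 20, 16 and 23 in swimming, and 173, 27 and 141 in control.

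On the log2 scale Igf1 differed by -2.39 ± 0.51 (SE) in swimming against control, by 1.97 ± 0.52 in combination against swimming and by -0.94 ± 0.46 in combination against curcumin. These comparisons share libraries and are not separate evidence. The value against control depended on control 2 and control 1: combination against control was -0.42 ± 0.46, -0.89 without control 2 and 0.04 without control 1. Curcumin against control was 0.52 ± 0.45, 0.05 without control 2 and 0.98 without control 1. Swimming against control kept its sign, at -2.86 without control 2 and -1.93 without control 1. The interaction, the swimming effect with curcumin minus the swimming effect without it, was 1.45 ± 0.68.

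Fibroblast, macrophage and skeletal muscle markers moved with Igf1 in part. All 10 of 10 fibroblast markers stood at 1 CPM or more on average, and their summed level was 6030 to 6395 CPM in combination, 4970 to 5879 in curcumin, 2094 to 3774 in swimming and 1443 to 5217 in control, lowest in control 2. All 10 of 10 macrophage markers did too, at 1037 to 1046 CPM in combination, 1214 to 1907 in curcumin, 786 to 1329 in swimming and 1002 to 2129 in control, again lowest among controls in control 2. All 10 skeletal muscle markers did too, and their sum, at 154 to 161 CPM in combination, 469 to 598 in curcumin, 78.7 to 298.2 in swimming and 46.5 to 702.7 in control, was also lowest in control 2. Their part in the Igf1 differences was not tested. Fibroblast marker levels were highest in combination, where Igf1 was below its curcumin level. Within swimming, the fibroblast sum was highest in swimming 2 (3774 CPM), where Igf1 was lowest (1.06 CPM). Summed endothelial markers (532 CPM) and pericyte and smooth muscle markers (484 CPM) were highest among controls in control 2, where Igf1 was lowest among controls.

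**Figure D2:**
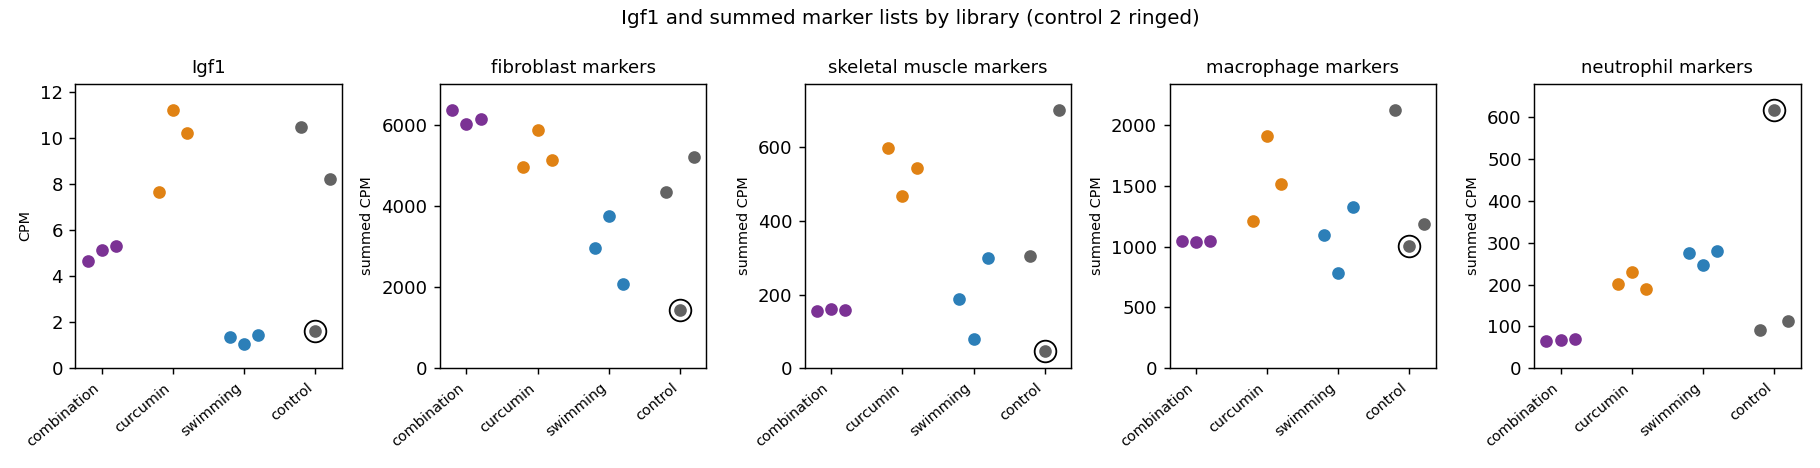
Igf1 in CPM (left) and the summed CPM of the fibroblast, skeletal muscle, macrophage and neutrophil marker lists in each library, on linear axes from 0, with control 2 ringed. Control 2 is the lowest control library for Igf1 (1.6 CPM) and for fibroblast, muscle and macrophage markers, and the highest library for neutrophil markers (619 CPM).

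Among the 5 genes whose profile was most like that of Igf1 were Otulinl, Mis12 and Dcn. The measure was the mean absolute difference between profiles of log2 CPM standardised over the 12 libraries, among 13637 other genes, and it was 0.204 standard deviations for Otulinl and 0.259 for both Mis12 and Dcn. Dcn encodes decorin, a collagen-binding proteoglycan of fibroblasts and also 1 of the fibroblast markers above. It stood at 30.5 to 32.2 CPM in combination, 31.6 to 51.6 in curcumin, 14 to 19.7 in swimming and 17.8 to 46.6 in control. No other member was close to Igf1: the nearest, Igfbp5, ranked 2859.

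Igf2, the fetal growth factor and second ligand, was at the limit of detection. Its counts were 0, 0 and 0 in combination, 0, 1 and 1 in curcumin, 0, 0 and 5 in swimming, and 3, 0 and 4 in control. The highest level was 0.313 CPM, it did not pass the filter on low counts, and no difference between groups was detectable at this depth.

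Igf1r, the signalling receptor, varied little. It stood at 161, 169 and 168 CPM in combination, 151, 153 and 152 CPM in curcumin, 192, 170 and 212 CPM in swimming, and 171, 226 and 169 CPM in control. The curcumin libraries were below all others, and combination overlapped only control, by a narrow margin. By edgeR's quasi-likelihood test no comparison passed. For curcumin against control, the smallest unadjusted p of the 6, the log2 fold change was -0.31 ± 0.11 (adjusted p = 0.3705 over 13638 genes). For combination against control the log2 fold change was -0.19 ± 0.11 (adjusted p = 0.3022).

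Igf2r, the clearance receptor, stood lowest in the combination. Its levels were 319, 312 and 313 CPM in combination, 408, 333 and 355 CPM in curcumin, 439, 420 and 458 CPM in swimming, and 338, 537 and 447 CPM in control. Every combination library was below every other library. The log2 fold change was -0.49 ± 0.14 against control (adjusted p = 0.05625) and -0.48 ± 0.14 against swimming (adjusted p = 0.05518), both just outside the threshold of 0.05. Against control it passed by DESeq2 (adjusted p = 0.01611) and without control 1 (-0.64, adjusted p = 0.006877), while without control 2 it was -0.31 (adjusted p = 0.1364). Against swimming it passed by DESeq2 (adjusted p = 0.01581), by voom (0.006015), in the fit of these groups alone (0.002603), without control 1 (0.01295) and without control 2 (0.007524). Per length, the ratio of Igf2r to Igf1r was 3.42 ± 0.14 in combination, 4.34 ± 0.48 in curcumin, 4.16 ± 0.28 in swimming and 4.20 ± 0.61 in control (SD, n = 3 each). The antisense RNA Airn lies opposite part of Igf2r, and the counting notes name no strand. Reads from the stretch they share therefore cannot be told apart.

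Of the 7 members tested among the 8 not singled out, 1 passed in combination against control at an adjusted p of 0.05 or below, where 5.17% of all 13638 tested genes did. In combination against curcumin 1 of 7 passed, with 0.895% of all genes, and in combination against swimming 2 of 7 passed, with 6.88% of all genes. In swimming against control 0 of 7 passed with edgeR, with 0.293% of all genes. There 1 of 7 had an unadjusted p under 0.05, as did 1787 of all genes. In curcumin against control 0 of 7 passed, with 0% of all genes, and 1 of 7 had an unadjusted p under 0.05, as did 1512 of all genes; DESeq2 called 68 genes there. The interaction had 0 of 7 with 0.139% of all genes. It had 1 of 7 at an unadjusted p under 0.05, with 1507 of all genes. DESeq2 and limma voom also passed 0 of 7 members in these last 3 comparisons. With 7 genes, counts of 0 to 2 are too few to set the axis apart from the background.

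Levels of the groups did not overlap for 4 of the 7 in combination against control, where 32.1% of all genes did not overlap, and for 4 of 7 in combination against curcumin, with 37% of all genes. In combination against swimming this held for 6 of 7, with 40.6% of all genes. In curcumin against control it was 2 of 7, with 14.6% of all genes, and in swimming against control 1 of 7, with 13.1%. The median log2 fold change over the 7 was -0.19 in combination against control, 0.13 in combination against curcumin and 0.07 in combination against swimming, where the medians over all genes were -0.02, -0.01 and 0.00.

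**Figure D3:**
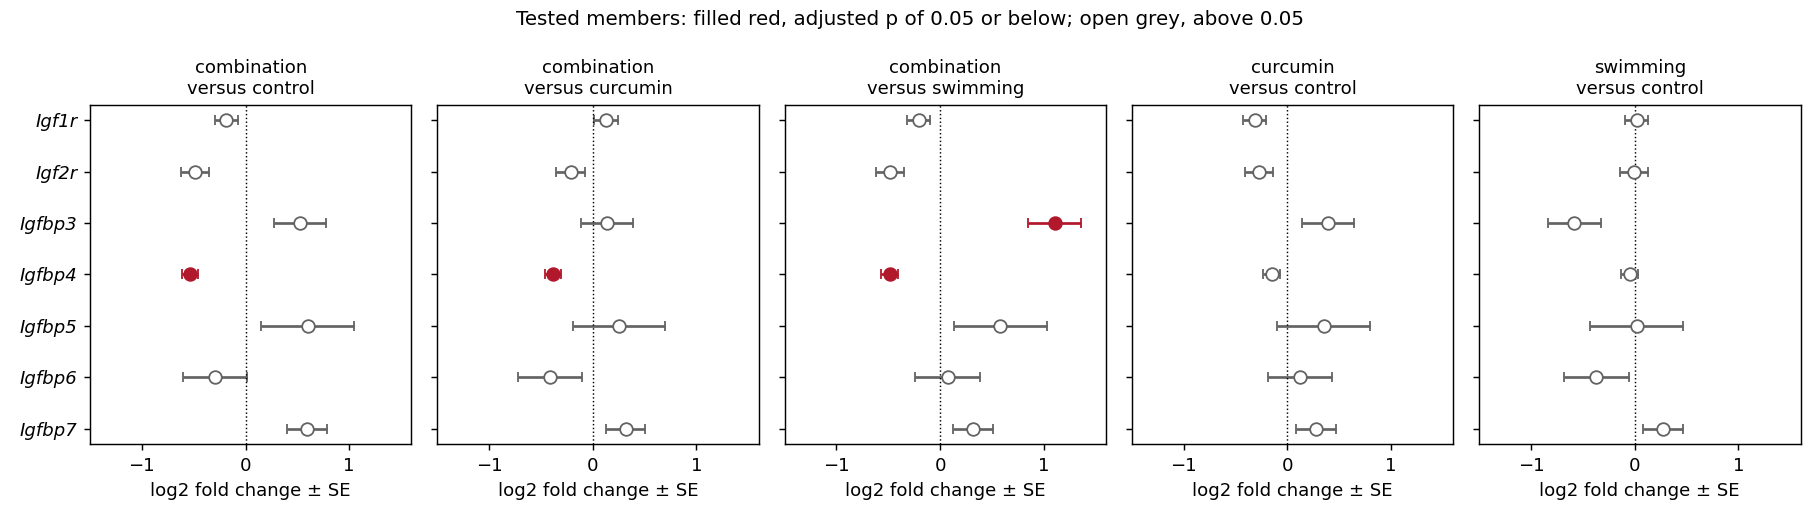
Log2 fold changes with standard errors (horizontal axes) of the 7 tested members in 5 comparisons, from edgeR's fit on all 12 libraries; filled red points have an adjusted p of 0.05 or below. Igfbp4 passed in the 3 comparisons of the combination, at -0.54, -0.38 and -0.49, and Igfbp3 in combination against swimming, at 1.11.

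Igfbp4, a binding protein that holds the ligands away from the receptor and is cut by Pappa, fell in the combination. It stood at 586, 561 and 574 CPM in combination, 768, 735 and 740 CPM in curcumin, 822, 725 and 865 CPM in swimming, and 834, 865 and 795 CPM in control. Every combination library was below every other library, while curcumin and swimming overlapped each other. With 9090 to 14612 counts in each library, counting error is small beside these gaps.

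Igfbp4 fell by 0.54 ± 0.08 on the log2 scale in combination against control, 0.690-fold of its control level (adjusted p = 0.01238, lower in 3 of 3 libraries). Against swimming it fell by 0.49 ± 0.08 (adjusted p = 0.01109), and against curcumin by 0.38 ± 0.08 (adjusted p = 0.04992). Curcumin against control was -0.15 ± 0.08 (adjusted p = 0.4951) and swimming against control -0.05 ± 0.08 (adjusted p = 0.8645). The interaction was -0.34 ± 0.11 (adjusted p = 0.3039), so a departure from the sum of the single effects did not pass. The sizes were steady, at -0.57 to -0.50 against control over the 12 fits that each left out 1 library. The calls were less so. Against control the call was lost without combination 1 (adjusted p = 0.06086), combination 2 (0.07868) or combination 3 (0.06568), and without control 2 it held (adjusted p = 0.01433). Against swimming it was lost without combination 2 (adjusted p = 0.06576), combination 3 (0.05728) or swimming 1 (0.05036). Against curcumin it held in 4 of 12 such fits and was lost without any 1 of the combination or curcumin libraries, swimming 1 or control 3, with adjusted p up to 0.2355 without combination 2. It was also lost under RLE scaling (0.06094), without the filter (0.06334), with a robust spread estimate (0.05188) and with the replicate number as a block (0.101). With the 3 combination libraries summed into 1, chosen after seeing the data because they were so alike, the log2 fold change against control was -0.53 with an adjusted p of 0.5968.

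Igfbp3, the main carrier of the ligands in blood, rose in combination against swimming. It stood at 414, 401 and 410 CPM in combination, 425, 315 and 375 CPM in curcumin, 186, 255 and 128 CPM in swimming, and 190, 389 and 273 CPM in control. Combination lay above all swimming and control libraries and overlapped curcumin, and swimming overlapped control. The log2 fold change was 1.11 ± 0.25 in combination against swimming (adjusted p = 0.02771), a 2.15-fold higher level. Against control it was 0.53 ± 0.25 (adjusted p = 0.1996), and for swimming against control -0.58 ± 0.25 (adjusted p = 0.3474). The call against swimming was lost without combination 1 (adjusted p = 0.08315), combination 2 (0.09518), combination 3 (0.09147), swimming 1 (0.09594) or swimming 3 (0.09311, log2 fold change 0.89), and with the combination libraries summed into 1 (0.4798).

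Igfbp7, a binding protein of low affinity for the ligands that is abundant in vessels and stroma, was highest in the combination. It stood at 305, 336 and 307 CPM in combination, 263, 238 and 260 CPM in curcumin, 264, 299 and 196 CPM in swimming, and 173, 287 and 169 CPM in control. Every combination library was above every other library. The log2 fold change against control was 0.59 ± 0.19 and did not pass (adjusted p = 0.08133). It passed by DESeq2 (adjusted p = 0.0241) and without control 2 (0.89, adjusted p = 0.0123). Without control 2, swimming against control also passed (0.57, adjusted p = 0.0385, against 0.27 with all libraries). Combination against curcumin, at 0.32 ± 0.19 (adjusted p = 0.3976), passed in the fit of these groups alone (adjusted p = 0.01245).

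Summed markers of vessels and fibroblasts were also highest in the combination libraries. The 10 of 10 endothelial markers at 1 CPM or more summed to 561 to 633 CPM in combination, 415 to 432 in curcumin, 253 to 382 in swimming and 382 to 532 in control. For pericytes and smooth muscle, 9 of 10 reached 1 CPM (Tagln did not), and the sum was 578 to 607 CPM in combination, 422 to 455 in curcumin, 259 to 544 in swimming and 335 to 484 in control. Fibroblast markers, given above, were also highest in combination. Among controls, Igfbp7 was highest in control 2 (287 CPM), where the fibroblast sum was lowest (1443 CPM) and both vessel sums were highest. Within swimming, Igfbp7 (299 CPM) and the fibroblast sum (3774 CPM) were both highest in swimming 2. Mitochondrial transcripts took 4.86 to 6.10% of counts in combination, 3.34 to 4.06% in curcumin, 4.36 to 4.87% in swimming and 2.96 to 4.30% in control. Neutrophil markers, of which 8 of 10 reached 1 CPM and Ly6g and Camp did not, summed to 66.1 to 68.8 CPM in combination, 189 to 230 in curcumin, 246 to 281 in swimming and 90.9 to 618.6 in control. Adipocyte markers, of which 3 of 10 reached 1 CPM and Adipoq and Plin1 did not, summed to 33.2 to 36.1 CPM in combination, 15.2 to 17.5 in curcumin, 13.8 to 17.2 in swimming and 10.9 to 23.7 in control, with no overlap of combination and the other groups. The part of these shifts in the levels of Igfbp3, Igfbp4, Igfbp7 and Igf2r was not tested. Of 5 skin markers Krt1 and Dsg1a were at 0 in every library.

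Igfbp2, a secreted binding protein that also has an integrin-binding motif, was hardly found in the combination. Its counts were 0, 9 and 6 in combination, 27, 26 and 21 in curcumin, 39, 27 and 34 in swimming, and 15, 48 and 37 in control. In CPM this was 0, 0.545 and 0.379 in combination, 1.63, 1.70 and 1.35 in curcumin, 2.61, 1.78 and 2.13 in swimming, and 0.908, 2.84 and 2.16 in control. Every combination library was below every other library, and the closest pair was combination 2 and control 1. Summed over libraries, 15 counts in combination against 100 in control gave a level 0.153 times that of control (95% exact interval 0.0824 to 0.264). Against swimming, with 100 counts, the ratio was 0.143 (0.0774 to 0.248), and against curcumin, with 74 counts, it was 0.191 (0.102 to 0.335). These intervals cover counting error only, not the spread between libraries. They are no test, since Igfbp2 was chosen with its shift already seen.

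The fitted log2 fold change of Igfbp2 was -2.65 ± 0.66 in combination against control, -2.07 without combination 1 and -3.35 without combination 2. Against swimming it was -2.79 ± 0.66 and against curcumin -2.31 ± 0.67. Each single treatment was near control, at -0.34 ± 0.55 for curcumin and 0.14 ± 0.55 for swimming. The interaction was -2.45 ± 0.86. The genes most like Igfbp2 over the 12 libraries were Sfi1, Tep1, Uqcc1, Rbck1 and Slc2a3, at 0.235 to 0.329 standard deviations on the same measure. Among the members, Igfbp4 ranked 68 and Igf2r 159 of 13637 genes in likeness to Igfbp2, and Igf1 ranked 11361. Slc2a3, a glucose transporter, stood at 4.24 to 6.57 CPM in combination, 8.74 to 13.1 in curcumin, 11.4 to 12.8 in swimming and 7.99 to 11.9 in control.

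Igfbp2 and Igfbp5 are neighbours on chromosome 1, on opposite strands, with 5458 bases between them in the coordinates of the deposited table, and their lowest group means stood in different groups. Igfbp5, a binding protein of bone, muscle and involuting mammary gland, stood at 24.2, 26.9 and 25.7 CPM in combination, 18.9, 24.6 and 21.1 CPM in curcumin, 18.4, 15.5 and 17.5 CPM in swimming, and 28.1, 3.67 and 19.0 CPM in control. Combination lay above swimming with no overlap, and control 2 was far below every other library. The log2 fold change in combination against control was 0.60 ± 0.45 (adjusted p = 0.4085) and 0.12 without control 2. Combination against swimming was 0.58 ± 0.45 (adjusted p = 0.4231) and passed without control 2 (adjusted p = 0.01791) and in the fit of these groups alone (adjusted p = 0.007312).

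Igfbp6, which binds Igf2 in preference to Igf1, stayed between 2.24 and 7.23 CPM. It stood at 2.24, 4.42 and 4.61 CPM in combination, 7.23, 3.53 and 4.24 CPM in curcumin, 4.02, 3.17 and 3.51 CPM in swimming, and 4.72, 4.44 and 4.67 CPM in control. Swimming lay below control without overlap, and the other groups overlapped. No comparison passed; the log2 fold change was -0.29 ± 0.31 in combination against control (adjusted p = 0.563) and -0.37 ± 0.31 in swimming against control (adjusted p = 0.6665).

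Set beside each other per length, Igfbp3, Igfbp4 and Igfbp7 made up 97.7 to 98.9% of the summed FPKM of the 6 binding proteins in every library. The sum itself was 523 to 530 FPKM in combination, 480 to 555 in curcumin, 403 to 487 in swimming and 406 to 551 in control, so the combination lay within the range of the curcumin and control libraries. Igfbp4 took 24.5 ± 1.0% in combination, 33.5 ± 1.6% in curcumin, 40.2 ± 7.7% in swimming and 41.7 ± 6.3% in control (SD, n = 3 each). Its share was lower in all combination libraries than in any other library. The 2-sided exact permutation p was 0.1 against each of the other groups, the smallest that 3 against 3 libraries can give.

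Igfbp7 took 49.3 ± 1.7% in combination, 41.4 ± 0.8% in curcumin, 45.3 ± 4.9% in swimming and 37.1 ± 4.4% in control. Combination did not overlap curcumin or control and overlapped swimming (exact permutation p = 0.3 against swimming). Igfbp3 took 24.7 ± 0.9% in combination, 23.3 ± 2.0% in curcumin, 13 ± 3.2% in swimming and 19.4 ± 3.7% in control. Shares of a sum are tied to each other, so a lower Igfbp4 share goes with a higher share of the rest.

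**Figure D4:**
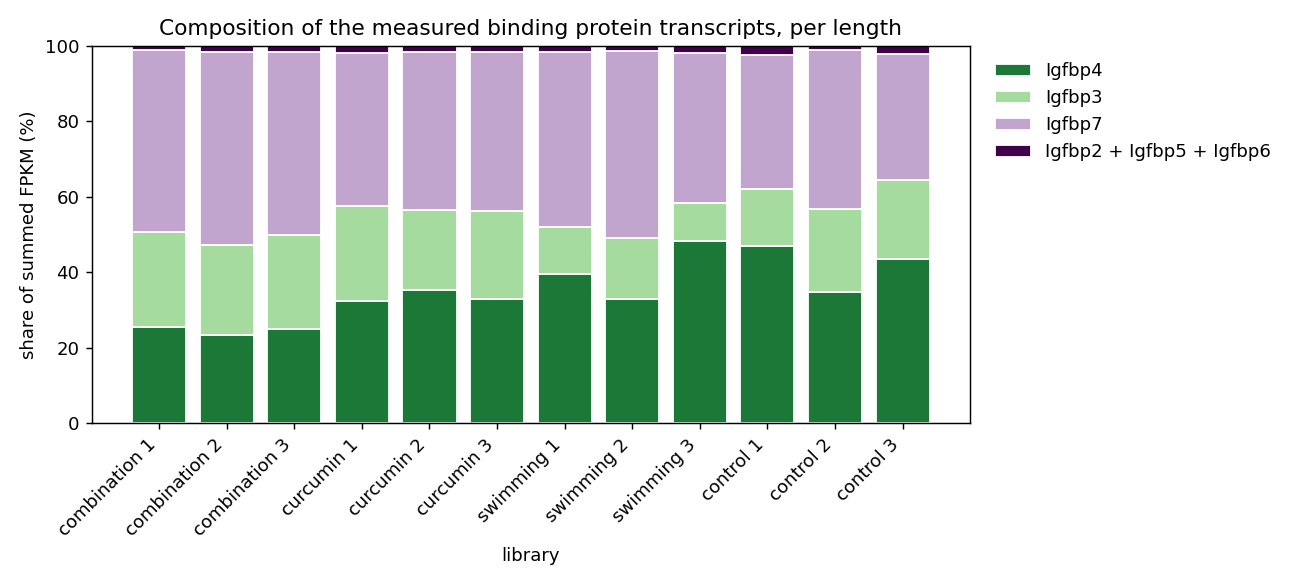
Share of the summed FPKM of the 6 binding proteins taken by each of them in every library, as stacked bars from 0 to 100% on a linear axis; Igfbp2, Igfbp5 and Igfbp6 are drawn together. Igfbp4 takes 23.4 to 25.3% in the combination libraries and 32.3 to 48.2% in all others.

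Around the 10 genes, 48 further genes of the pathway were followed, of which 44 were tested; Igfbp1, Igfals, Igfbpl1 and Pappa2 were too low. In combination against control 0 were higher and 2 lower, against a background of 2.6% of all genes higher and 2.57% lower. In combination against swimming 2 were higher and 2 lower, with 3.67% and 3.21% of all genes. In combination against curcumin, in each single treatment against control and in the interaction, 0 of 44 passed in either direction by edgeR. At an unadjusted p under 0.05 these 4 comparisons held 6 (combination against curcumin), 8 (curcumin), 6 (swimming) and 5 (interaction) of the 44. Over all 13638 tested genes the numbers were 2483, 1512, 1787 and 1507. DESeq2 called 0, 0, 1 and 0 of the 44, and 686, 68, 303 and 201 of all genes. Voom called 6 of the 44 in combination against curcumin, where it called 1933 of all genes, and 0 in the other 3. In combination against control DESeq2 called 7 of the 44 and voom 1, where over all genes they called 1628 and 403. In combination against swimming DESeq2 called 7 and voom 9, and over all genes 1835 and 2797. Voom used the same 13638 genes. DESeq2 was run on every gene with a count and applied its own filter, so its numbers are not out of 13638. The median log2 fold change over the 44 was -0.11 in combination against control and -0.16 in combination against swimming, with -0.02 and 0.00 over all genes.

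Among 14 targets of the FoxO factors, which Akt holds out of the nucleus when the pathway is active, Ccng2 and Gadd45a fell in the combination against control and against swimming. Against curcumin neither passed, at -0.35 ± 0.12 for Ccng2 (adjusted p = 0.1657) and -0.84 ± 0.36 for Gadd45a (adjusted p = 0.2442). Ccng2, an atypical cyclin that slows the cell cycle, averaged 58.8 ± 3.1 CPM in combination, 74.9 ± 5.3 in curcumin, 80.7 ± 5.6 in swimming and 80.9 ± 14.8 in control. Its log2 fold change was -0.46 ± 0.12 against control (adjusted p = 0.0498) and -0.46 ± 0.12 against swimming (adjusted p = 0.04374). Both calls lay at the threshold. The call against control held in 2 of 12 fits that left out 1 library (control 1 or control 3), and that against swimming in 3 of 12 (each control library). They reached an adjusted p of 0.1723 and 0.1492 without combination 2. With the replicate number as a block both were lost (0.07557 and 0.06291), and that against control was also lost under RLE scaling (0.05106), without the filter (0.05081), by voom (0.06097) and in the fit of these groups alone (0.1343). Gadd45a, a DNA damage and stress response gene, stood at 10.7 to 12.4 CPM in combination, 14.8 to 25.5 in curcumin, 32.3 to 35.7 in swimming and 15.4 to 57.2 in control. It fell by 1.54 ± 0.36 on the log2 scale against control (adjusted p = 0.03781) and by 1.58 ± 0.36 against swimming (adjusted p = 0.02771). Control 2 held the highest Gadd45a level, and without it the value against control was -0.89 (adjusted p = 0.06246). The call against control was also lost without each combination library in turn, curcumin 3, swimming 1 or control 3, with adjusted p up to 0.1525, with the replicate number as a block (0.07205) and in the fit of these groups alone (0.1166). The call against swimming held in 7 of 12 fits that left out 1 library and was lost without each combination library in turn, swimming 1 or swimming 3, with adjusted p up to 0.1084. The other 12 targets did not pass by edgeR. Of all 14, DESeq2 called 4 in combination against control and 3 in combination against swimming, where it called 1628 and 1835 of all genes. Voom called 1 and 4 there, with 403 and 2797 of all genes, and 3 in combination against curcumin, with 1933 of all genes.

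Of 15 adaptors and PI3K-Akt genes, Grb10, an adaptor that binds Igf1r and the insulin receptor and dampens their signal, rose in combination against swimming. It averaged 31.7 ± 2.6 CPM in combination, 21.2 ± 0.7 in curcumin, 13.4 ± 7.3 in swimming and 19.1 ± 2.6 in control (SD, n = 3 each). The log2 fold change was 1.25 ± 0.29 against swimming (adjusted p = 0.0289) and 0.73 ± 0.28 against control (adjusted p = 0.1261). The call held in 8 of 12 fits that left out 1 library and was lost without each combination library in turn or swimming 1, with adjusted p up to 0.1023. Without swimming 3 the log2 fold change was 0.91. Mtor, the growth kinase downstream of Akt, was -0.31 ± 0.09 in combination against control (adjusted p = 0.06443) and passed by DESeq2 (adjusted p = 0.03751) and without control 1 (adjusted p = 0.02116). In curcumin against control Mtor was -0.26 ± 0.09 (adjusted p = 0.3705), and combination against curcumin was -0.05 ± 0.09.

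Among the proteases of the binding proteins and their inhibitors, Stc1, stanniocalcin, which in human blocks the action of pregnancy-associated plasma protein A, rose in combination against swimming. It averaged 16.6 ± 1.6 CPM in combination, 14.1 ± 1.3 in curcumin, 10.6 ± 2.4 in swimming and 11.6 ± 1.4 in control. Its log2 fold change was 0.52 ± 0.17 against control, which did not pass (adjusted p = 0.08584), and 0.65 ± 0.17 against swimming (adjusted p = 0.04284). The call against swimming held in 3 of 12 fits that left out 1 library (each control library), with adjusted p up to 0.1602 without combination 2, and was lost with the replicate number as a block (0.05439). Pappa itself averaged 18.9 CPM in combination, 11.2 in curcumin, 13.6 in swimming and 9.27 in control. Swimming 2 (20.7 CPM) lay above every combination library (18.2 to 19.2 CPM). In combination against control the log2 fold change of Pappa was 1.02 ± 0.30 and did not pass (adjusted p = 0.06238). It passed by DESeq2 (adjusted p = 0.01113) and without swimming 2 (0.03005), swimming 3 (0.02647) or control 1 (0.0221). In the growth hormone group of 7 genes, which passes the pituitary signal to Igf1, none passed by edgeR or DESeq2 in any comparison. In combination against control 4 of the 7 had an unadjusted p under 0.05, as did 3676 of all 13638 tested genes. Socs2, a feedback inhibitor of the growth hormone receptor, was 0.38 ± 0.13 in combination against control (adjusted p = 0.08661) and passed without control 1 (adjusted p = 0.03558). In swimming against control Socs2 was 0.46 ± 0.13 (adjusted p = 0.1491), and combination against swimming was -0.08 ± 0.13. The insulin receptor gene Insr was -0.22 ± 0.08 in combination against control (adjusted p = 0.1137) and -0.28 ± 0.08 in curcumin against control (adjusted p = 0.3135). Of the 3 genes for proteins that bind Igf2 mRNA, Igf2bp3 was -0.74 ± 0.32 in combination against control (adjusted p = 0.161).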

How the data were processed

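Tumour RNA of 12 libraries, 3 in each of 4 groups, was measured by RNA sequencing. The deposited table gives whole-number counts and FPKM for every gene in every library; the authors' counts came from HTSeq 0.9.1 per the labels' protocols and the submitters' processing notes. The labels' protocols state alignment to mm9 with HISAT2 2.0.5, whereas the submitters' processing notes name GRCm39 and list cutadapt, TopHat2, HISAT2 and DESeq 1.30.0, so the build is stated in 2 ways. The strand setting of the counting and the treatment of reads shared by similar genes are not given in the sources used here. All 184877 nonzero FPKM values deposited by the authors could be recomputed from the counts, the gene lengths and the library totals (184877 matched to a relative 1e-05).

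Sample titles gave the groups, because swimming libraries are labelled with corn oil as their treatment. The filter filterByExpr, at a minimum count of 10 and a total of 15, left 13638 of 21899 genes. After TMM scaling, 1 model of all 12 libraries was fitted with edgeR 4.0.16 (R 4.3.3; 8 residual degrees of freedom), and quasi-likelihood F-tests (2-sided) were adjusted by Benjamini-Hochberg over all 13638 genes in each of 6 comparisons. A gene was called at an adjusted p of 0.05 or below. CPM values are TMM-scaled; FPKM was used to compare levels between genes. The script was tested on simulated data in which all groups shared the same spread for each gene. The groups here differed in spread, and that test does not cover its effect on the calls.

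All members are named. Of the pathway lists, each gene called in any comparison and the gene with the smallest p in combination against control per list are named. Of the 5 genes most like Igf1 in profile, some are not reported here. Members, gene lists and markers were chosen with earlier results of these data known. Alternatives were RLE scaling, no filter, the replicate number as a block, fits of the compared groups alone, DESeq2 1.42.0 and each library left out, and, chosen after seeing the data, a robust spread estimate, the combination libraries summed into 1, and voom (limma 3.58.1) with a weight per group. Replicate numbers did not pair the libraries. Library totals of 15069348 to 17278826 counts set a floor of 3 counts at 0.174 to 0.199 CPM.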

Additional observations from a re-analysis of the deposited data

Results flagged for a closer look

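For Igfbp3, the log2 fold change with swimming was -0.58 ± 0.25 without curcumin and 0.14 ± 0.25 with it. By edgeR neither passed (adjusted p = 0.3474 and 0.8138), and the value with curcumin was within its standard error of 0. Every swimming library lay below the control mean, and every combination library lay above the curcumin mean. The interaction on the log2 scale was 0.72 ± 0.36. That difference was tested with edgeR and did not pass (adjusted p = 0.4903). Swimming and control overlapped, as did combination and curcumin.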

How the results depend on the processing

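Over the 67 pairs of a gene and a comparison, 1331 alternative values were computed. Of these, 1191 kept their direction and side of the threshold or, for Igf1 and Igfbp2, their direction within the spread inside groups. A further 86 lost a call, 24 gained one, 1 value without a test moved beyond its spread and 29 changed sign. The numbers of genes called follow in the order combination against control, curcumin against control, swimming against control, combination against curcumin, combination against swimming, interaction. They were 705, 0, 40, 122, 938 and 19. DESeq2 gave 1628, 68, 303, 686, 1835 and 201, and 3 members in the first comparison. Fits of the compared groups alone gave 94, 0, 0, 2083 and 2719, with 2 members in combination against curcumin and 4 in combination against swimming. With voom they were 403, 0, 0, 1933, 2797 and 36, and with the combination summed into 1 they were 0, 0, 1, 0, 0 and 0, with 0 members in each comparison of the combination. The interaction called 34 under RLE scaling, 40 without the filter and 34 with robust spread, and each of these left 0 members in combination against curcumin; without the filter curcumin against control called 3. Leaving out 1 library gave 4 to 2267, 0 to 10, 0 to 639, 2 to 719, 28 to 2730 and 0 to 448 genes, and 0 to 2, 0 to 0, 0 to 1, 0 to 1, 0 to 4 and 0 to 0 members. Without control 2 the genes were 370, 10, 639, 719, 2730 and 448. The cause of these shifts was not tested.

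Replicate numbers did not pair the libraries: over 18 pairs of libraries with the same number, deviations from group means correlated at -0.251 to 0.165, and 2 were above 0.1. With the replicate number as a block, 203, 1, 4, 27, 512 and 5 genes were called, and 0 members in combination against curcumin. The block also turned Igf2r in swimming against control to 0.00034 on the log2 scale, from a value near 0; voom gave 0.0198, and voom turned the interaction of Igfbp5 to -0.19.

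Sign changes from leaving out 1 library are given as ranges of the log2 fold change. In swimming against control they were -0.0596 to 0.17 for Igf1r, -0.16 to 0.16 for Igf2r, -0.20 to 0.50 for Igfbp2, -0.10 to 0.0222 for Igfbp4 and -0.46 to 0.60 for Igfbp5. In curcumin against control they were -0.68 to 0.0232 for Igfbp2, -0.13 to 0.93 for Igfbp5 and -0.25 to 0.32 for Igfbp6. Igf1 in combination against control ran from -0.89 to 0.0362, and Igfbp6 in combination against swimming from -0.10 to 0.34. The interaction ran from -0.0423 to 0.19 for Igf1r, -0.35 to 0.71 for Igfbp5, -0.24 to 0.32 for Igfbp6 and -0.25 to 0.18 for Igfbp7.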
